A study of Homo sapiens with 16 samples.

Results

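H441 is an established human lung adenocarcinoma line of papillary histology that still makes surfactant proteins, the secreted products of the distal lung. What follows is the RNA response of this single line to 2 small molecules given together, taken from 4 of the 16 libraries of the series and compared across the 23968 genes that could be tested. The H441 vehicle group was 2 libraries of cells given DMSO, and the H441 combination group was 2 libraries of cells given 5 µM MYCi975 and 25 µM TMP195. All cells grew in RPMI with 10% fetal bovine serum, were treated 1 day after plating and received their treatment for 48 hours. Vehicle and combination groups of 2 libraries each, with the same doses and time, exist for HCC827, H460 and H1703, established non-small cell lung cancer lines that serve here for comparison. The series calls H441 and HCC827 non-responsive to the combination and H460 and H1703 responsive. Cells given a single agent were not analysed here, so a change cannot be assigned to either compound. It is not stated whether the 2 libraries of a group are separate cultures, so p-values measure only the spread between these libraries, which may be technical.

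MYCi975 binds the transcription factor MYC and interferes with its pairing with MAX, the partner with which it binds E-box DNA and drives genes of growth and ribosome production. TMP195 occupies the catalytic pocket of class IIa deacetylases (HDAC4, HDAC5, HDAC7, HDAC9), proteins that act largely as corepressors of MEF2 transcription factors. Distal lung epithelium is kept in its differentiated state by NKX2-1, a transcription factor that drives surfactant genes. Cells short of amino acids or with stressed mitochondria can switch on the integrated stress response, in which the factor ATF4 raises genes of amino acid synthesis, uptake and tRNA charging.

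The H441 libraries held 9710301 and 9885733 reads in the listed genes with vehicle and 11076661 and 12507833 with the combination. Levels are given as normalised reads, that is, reads divided by the size factor of the library. Replicate libraries correlated across genes, which are not independent replicates, at 0.9799 (vehicle) and 0.9786 (combination). The mitochondrial ribosomal RNA MT-RNR2 took 16.1 and 16.5% of H441 reads with vehicle and 16.9 and 17.002% with the combination. The nuclear RNA MALAT1 took 0.789 and 0.923% with vehicle and 1.14 and 1.06% with the combination; its change of 0.43 ± 0.14 did not pass the test (adjusted p = 0.121), and its part in other results was not tested. The epithelial markers EPCAM, CDH1, KRT8, KRT18 and KRT19 were abundant, with EPCAM at 4330.2 and 4552 normalised reads with vehicle and 5017 and 4832 with the combination. Of the distal lung markers NKX2-1, SFTPA1, SFTPA2, SFTPB and NAPSA were present with vehicle, SFTPC and SFTPD were not analysed here, and the club cell gene SCGB3A2 had 0 reads. Markers of blood, vessel, stromal and glial cells summed to 197 and 214 normalised reads with vehicle and 131 and 151 with the combination over the 10 of 19 in the table, most of it COL1A1 and GFAP, with COL3A1 and PDGFRB at 0 reads.

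With the combination 665 genes were higher in H441 and 445 were lower, which is 2.77 and 1.86% of the tested genes and 4.63% together. A change is the combination level minus the vehicle level on the deposited log2 scale, given with its standard error from a limma model of all 8 groups. A gene is called when its Benjamini-Hochberg adjusted p is below 0.05. Counts of called list members below are to be read beside the 2.77 and 1.86% of all genes. Most called changes were small, with a median size of 0.621, and 149 rises and 134 falls reached 1 on the log2 scale. Of 14656 protein-coding genes 607 were higher and 379 lower (6.73%), while 1.8% of antisense RNAs and 1.56% of long intergenic RNAs were called. The median change over all tested genes was 0. In all 1110 called genes both combination libraries lay beyond both vehicle libraries, as they did in 44.9% of all tested genes.

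The calls and the standard errors rest on a spread pooled over the 8 groups. They need not show the spread within H441, above all for a gene of few reads in H441 that is abundant in other lines. A limma model of the 4 H441 libraries alone called 0 genes (lowest adjusted p 0.0809), with 4622 at an unadjusted p below 0.05, against 4109 in the model of all groups; voom on the recovered reads of all groups called 867 higher and 637 lower. Leaving out vehicle library 1, vehicle 2, combination 1 or combination 2 left 353, 335, 356 and 306 genes called higher and 167, 164, 219 and 210 called lower. Of the 156 called genes named by a fixed rule, 74, 80, 86 and 79 kept their call in these 4 fits, and 56 kept it in all 16 fits without 1 library.

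**Figure D1:**
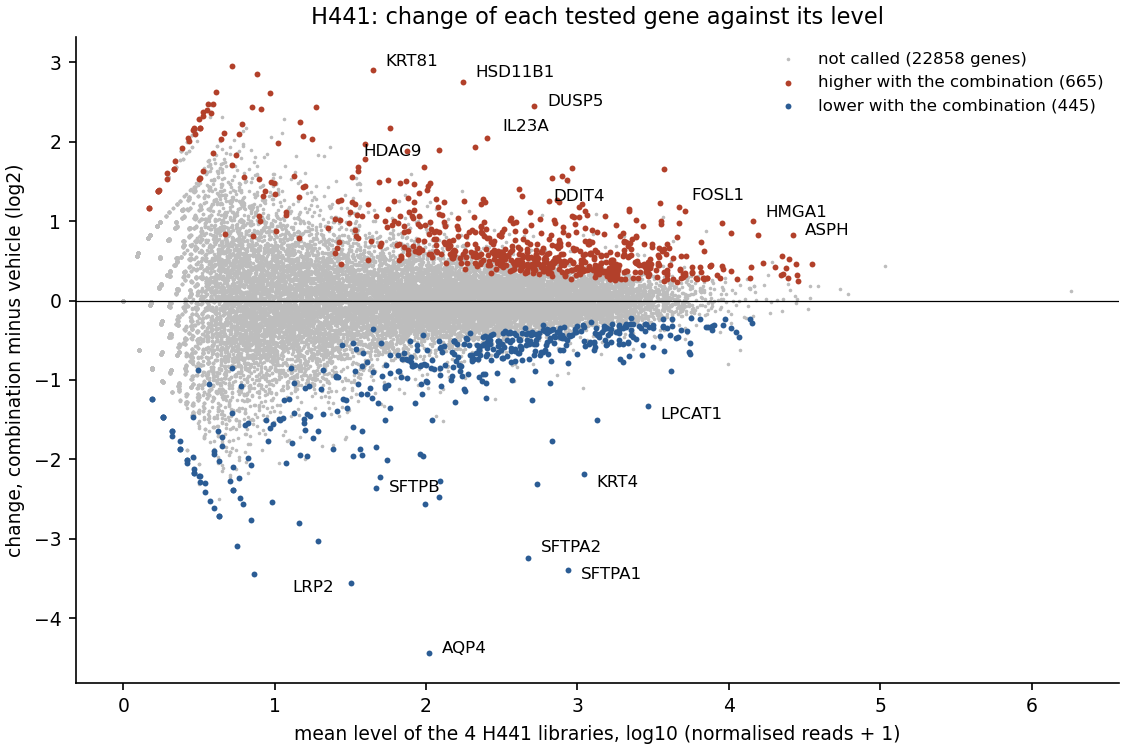
Change of each tested gene in H441 (vertical axis, log2, combination minus vehicle) against its mean level in the 4 H441 libraries (horizontal axis, log10 of normalised reads plus 1), with the 665 higher and 445 lower genes coloured. AQP4, LRP2, SFTPA1 and SFTPA2 lie below -3, while the abundant ASPH lies at 0.82.

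Genes of surfactant and of the alveolar type II cell, the cell that makes surfactant, included the 4 deepest falls named here. Of 19 tested members, of 25 listed, 7 fell and 0 rose, with a median change of -0.88, beside 1.86% of all genes called lower and a median of 0. Those that fell encode the surfactant proteins A1, A2 and B, the water channel AQP4, the endocytic receptor LRP2, the surfactant phospholipid enzyme LPCAT1 and the membrane mucin MUC1. The summed level of the list was 14995 and 16318 normalised reads with vehicle and 6446 and 7023 with the combination. In bulk RNA, fewer cells making a transcript and less transcript per cell cannot be told apart.

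SFTPA1 (ENSG00000122852, chromosome 10, 79610939 to 79615455, plus strand, GRCh38) was at 1511 and 1660.2 normalised reads with vehicle and 111 and 197 with the combination. That is a 10.3-fold lower level and a change of -3.40 ± 0.54 (adjusted p = 0.000788). SFTPA2 (chromosome 10, 79555852 to 79560402, minus strand) was at 755 and 951 normalised reads with vehicle and 94.7 and 79.9 with the combination, a change of -3.24 ± 0.64 (adjusted p = 0.00449). The vehicle and combination libraries of both genes were far apart, but these near-identical neighbours can share reads. AQP4, which lets water cross the cell membrane, was at 130.3 and 271 normalised reads with vehicle and 7.05 and 5.45 with the combination, the deepest of the named falls (-4.44 ± 0.68, adjusted p = 0.000571). LRP2 was at 62.9 and 53.2 normalised reads with vehicle and 6.04 and 0.908 with the combination (-3.56 ± 0.75). SFTPB, whose protein is needed for the surfactant film, was at 58.5 and 97.7 normalised reads with vehicle and 19.1 and 8.17 with the combination (-2.35 ± 0.63, adjusted p = 0.0374). All 3 were low in every combination library. LPCAT1, which remodels surfactant phospholipid, was at 3940.4 and 4385 normalised reads with vehicle and 1591 and 1718 with the combination (-1.33 ± 0.11, adjusted p = 1.24e-06), and MUC1 was at 5255 and 5559.9 normalised reads with vehicle and 2785 and 3084 with the combination (-0.88 ± 0.21). The fall of LPCAT1 was shared: it was also called lower in HCC827 (-1.39), H460 (-0.72) and H1703 (-1.40). SFTPB in HCC827 was at 19.4 and 37.5 normalised reads with vehicle and 5.88 and 2.77 with the combination. The list's median was -0.57 in HCC827 (1 higher and 3 lower), 0 in H460 (2 and 2) and 0.22 in H1703 (3 and 1). In these lines 9.92, 26.7 and 35.5% of all genes were called. SFTPB (adjusted p 0.0589 to 0.265) and MUC1 (0.0848 to 0.147) lost their calls without any 1 of the 4 H441 libraries. SFTPA2 lost its call without vehicle 2 (adjusted p = 0.0669) or combination 2 (0.0548) and LRP2 without vehicle 1 (0.0779) or vehicle 2 (0.0569) or combination 2 (0.12).

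The lineage factor gene NKX2-1 was at 1735 and 1759 normalised reads with vehicle and 1024 and 1175 with the combination, a change of -0.67 ± 0.46 that did not pass the test (adjusted p = 0.515). NAPSA, which encodes a protease that processes surfactant protein B, was at 957 and 981 normalised reads with vehicle and 489 and 521 with the combination and was not called either (-0.94 ± 0.48, adjusted p = 0.335). In both genes the 2 groups did not overlap, as in 44.9% of all tested genes, and the standard errors were wide. Those errors pool the spread of all 8 groups and not of H441 alone. In the H460 and H1703 libraries NKX2-1 reached at most 5.84 normalised reads and NAPSA at most 11.03. The part of these low levels in the errors of both genes was not tested. Voom on the recovered reads called both lower (adjusted p = 7.75e-06 and 1.94e-07), and it called 10 of the surfactant list and 4 of the lineage factors lower. Among 19 lung lineage transcription factors CEBPD (-0.91 ± 0.23) and ID2 (-1.54 ± 0.31, on 17 vehicle and 4 combination reads) fell and ETV5, which growth factor signalling induces, rose (0.69 ± 0.10). The sodium channel subunit SCNN1A, which clears fluid from the airspace, was at 3196 and 3872 normalised reads with vehicle and 3249 and 3941 with the combination (0.02 ± 0.57), and SCNN1B (0.12 ± 0.53) and SCNN1G (-0.52 ± 0.69) were not called. Limma called none of 15 club and secretory airway genes (0 higher and 2 lower at an unadjusted p below 0.05; voom called 0 higher and 2 lower). It called none of 27 epithelial junction genes (1 higher and 1 lower at an unadjusted p below 0.05; voom called 2 higher and 1 lower). CDH1, which encodes E-cadherin, was at 8642 and 8697 normalised reads with vehicle and 9091 and 9234 with the combination (0.08 ± 0.23). CEBPD lost its call without vehicle 1 (adjusted p = 0.119) or vehicle 2 (0.145) or combination 1 (0.259) and ID2 without vehicle 1 (0.0626) or combination 2 (0.111). ID2 (adjusted p = 0.596) lost its call with voom on the recovered reads. In HCC827 NKX2-1 was at 1022 and 951 normalised reads with vehicle and 482 and 403 with the combination. NAPSA there was at 60.6 and 56.7 with vehicle and 41.2 and 28.6 with the combination.

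**Figure D2:**
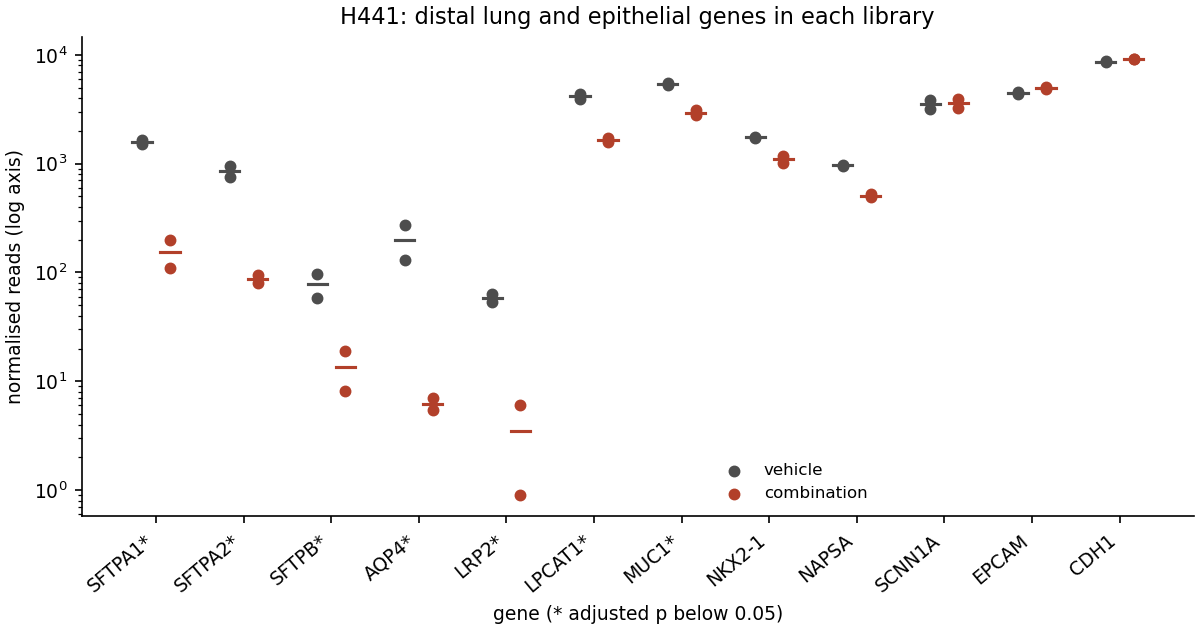
Normalised reads (log axis) of 12 distal lung and epithelial genes in each H441 library, with 2 vehicle and 2 combination points per gene, a line at each group's mean and an asterisk where adjusted p is below 0.05. SFTPA1 lies 10.3-fold and SFTPA2 9.77-fold lower with the combination, while the points of SCNN1A, EPCAM and CDH1 lie close together.

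Other large falls included genes of surface and secretory epithelium. KRT4, a keratin of mucosal epithelium, was at 1671 and 1932 normalised reads with vehicle and 322 and 479 with the combination (-2.18 ± 0.28, adjusted p = 0.000108). B3GNT6, which encodes a glycosyltransferase of mucin sugar chains, was at 846 and 964 normalised reads with vehicle and 176 and 183 with the combination (-2.31 ± 0.49). ERP27, an endoplasmic reticulum protein gene, was at 201 and 206 normalised reads with vehicle and 41.3 and 39.0 with the combination (-2.27 ± 0.36, adjusted p = 0.000772). All combination libraries of these 3 genes lay several-fold below the vehicle libraries. The alkaline phosphatase gene ALPP fell by 2.57 ± 0.43, though near-identical family members can share its reads. PLEKHS1 fell by 2.48 ± 0.55, the heparan sulfate sulfatase gene SULF1 by 3.02 ± 0.58 (64 vehicle and 4 combination reads), NYAP2 by 2.53 ± 0.63 (28 vehicle and 4 combination reads) and SDHAP3, a pseudogene of a mitochondrial enzyme subunit, by 2.80 ± 0.69 (43 vehicle and 7 combination reads). CYP1B1, a xenobiotic and estrogen hydroxylase gene, was at 2222 and 1748 normalised reads with vehicle and 777 and 616 with the combination (-1.51 ± 0.14, adjusted p = 2.84e-06). With the efflux pump gene ABCG2 (-0.92 ± 0.26) it made up the 2 falls among 15 xenobiotic metabolism genes, none of which was called higher. Of 22 genes of mucins and their glycosylation MUC1 and B3GNT6 fell and the sialyltransferase gene ST3GAL1 rose (0.71 ± 0.16). B3GNT6 (adjusted p 0.063 to 0.0943), PLEKHS1 (0.0504 to 0.101), ABCG2 (0.152 to 0.207) and ST3GAL1 (0.0523 to 0.129) lost their calls without any 1 of the 4 H441 libraries. SULF1 lost its call without vehicle 2 (adjusted p = 0.0906), NYAP2 without vehicle 1 (0.071) or vehicle 2 (0.195) or combination 2 (0.304) and SDHAP3 without vehicle 1 (0.122) or vehicle 2 (0.22). SDHAP3 (adjusted p = 0.053) and ABCG2 (0.0542) lost their calls with quantile normalisation. ST3GAL1 (adjusted p = 0.106) lost its call with voom on the recovered reads. In HCC827 the mean normalised reads went from 998 to 58.0 in KRT4, from 249 to 35.7 in ALPP and from 138 to 15.3 in PLEKHS1. They went from 185 to 84.4 in ERP27, from 23.9 to 3.40 in B3GNT6 and from 125.5 to 103.8 in SDHAP3.

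The largest rises included keratins and a steroid enzyme. KRT81 (chromosome 12, 52285913 to 52291534, minus strand), a hair keratin, was at 9.94 and 6.51 normalised reads with vehicle and 97.7 and 60.8 with the combination (2.90 ± 0.48, adjusted p = 0.00115). KRT16, a keratin of wounded epithelium, was at 4.42 and 3.26 normalised reads with vehicle and 30.2 and 32.7 with the combination (2.44 ± 0.57, adjusted p = 0.0162). With KRT15 (0.99 ± 0.24) they were the 3 rises among 11 keratins, beside 2.77% of all genes called higher, and KRT4 fell. Voom called 6 keratins higher, and limma called 1 when any 1 H441 library was left out. The median of that list was 0.48. HSD11B1 (chromosome 1, 209686178 to 209734950, plus strand), which encodes the enzyme that turns cortisone into active cortisol, was at 38.7 and 47.7 normalised reads with vehicle and 307 and 305 with the combination, a 7.09-fold higher level (2.76 ± 0.51, adjusted p = 0.00272). Its 2 groups lay far apart, and so did those of KRT81. CCDC9B rose by 2.18 ± 0.40. The non-coding genes AC010343.3 (2.25 ± 0.45, 6 vehicle and 50 combination reads), AC016738.1 (2.03 ± 0.29, 9 vehicle and 60 combination reads), ARHGEF2-AS2 (1.99 ± 0.49, 5 vehicle and 34 combination reads), RPLP0P2 (2.07 ± 0.55, 8 vehicle and 51 combination reads) and RPSAP52 (1.98 ± 0.47, 26 vehicle and 131 combination reads) also rose. SPRY4-AS1 had 3 vehicle and 32 combination reads (9.31-fold, 95% counting interval 2.91 to 47.5), an interval that covers counting error only. Antisense genes overlap their partners, RPLP0P2 and RPSAP52 are pseudogene copies of ribosomal genes, and the sources do not give whether the counting used strand. KRT16 (adjusted p 0.0746 to 0.118), KRT15 (0.0694 to 0.16) and RPSAP52 (0.0537 to 0.162) lost their calls without any 1 of the 4 H441 libraries. CCDC9B lost its call without vehicle 2 (adjusted p = 0.0696), AC010343.3 without vehicle 1 (0.0779) or combination 1 (0.0626) and ARHGEF2-AS2 without vehicle 1 (0.235) or combination 1 (0.156) or combination 2 (0.074). RPLP0P2 lost its call without vehicle 1 (adjusted p = 0.269) or combination 1 (0.15) or combination 2 (0.137) and SPRY4-AS1 without vehicle 2 (0.256) or combination 1 (0.0531) or combination 2 (0.157). CCDC9B (adjusted p = 0.072) lost its call with voom on the recovered reads.

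Genes of the integrated stress response rose together in H441. Of 44 tested members 30 rose and 0 fell, with a median change of 0.57, beside 2.77% of all genes called higher. Their summed level was 43306 and 41212 normalised reads with vehicle and 62053 and 64318 with the combination. The number called higher was 20 to 26 when 1 H441 library was left out. By role, 5 of 7 genes of transcription factors, 7 of 8 of aminoacyl-tRNA synthetases, 6 of 8 of amino acid transporters, 8 of 13 of amino acid and one-carbon enzymes and 4 of 8 of feedback, signalling and secreted proteins rose. This grouping was made after the values were seen.

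ATF4, with a C/EBP partner, binds a short element of the form TGATGNAA, which was looked for in the promoters of these genes. In RefSeq promoter windows (GRCh38.p14, 250 bases before to 50 after the start site) the element was present on either strand in 9 of the 37 members with a window, or 24.3%, and in 8 of 26 called ones, or 30.8%. It was present in 3.67% of all 27305 windows of that length. A match describes the letters and not binding, and its part in the rise was not tested. Members were listed as genes of this response, so the share may reflect that choice. The 3 sequences that follow are 90-base stretches upstream of the start site, from the called members whose whole match lies before it. They are read 5′ to 3′ on the gene's strand with the match in capitals. In the other called members with a match, the match reaches or lies beyond the start site.
ASNS, chr7:97872427-97872516, minus strand: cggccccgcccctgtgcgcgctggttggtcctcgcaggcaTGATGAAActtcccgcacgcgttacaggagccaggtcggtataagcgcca
ATF3, chr1:212565176-212565265, plus strand: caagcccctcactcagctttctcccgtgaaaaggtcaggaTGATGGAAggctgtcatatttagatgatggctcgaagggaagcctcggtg
AARS1, chr16:70289644-70289733, minus strand: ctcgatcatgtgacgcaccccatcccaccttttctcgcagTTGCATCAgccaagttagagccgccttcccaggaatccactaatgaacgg
Counted from the start site, the match begins at -68 in ASNS, -191 in ATF3 and -187 in AARS1, an alanyl-tRNA synthetase gene, where it lies on the opposite strand.

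Among transcription factors DDIT3, which encodes the stress factor CHOP, was at 437 and 482 normalised reads with vehicle and 916 and 952 with the combination (1.02 ± 0.11, adjusted p = 2.31e-05). ATF3, whose promoter is printed above, was at 68.5 and 93.3 normalised reads with vehicle and 147 and 152 with the combination (0.88 ± 0.17). ATF4 itself, regulated largely at translation, rose by 0.48, while ATF5 changed by -0.42 and was not called. Among enzymes ASNS, which makes asparagine, was at 43.1 and 41.2 normalised reads with vehicle and 118 and 97.1 with the combination (1.29 ± 0.36, adjusted p = 0.0434). The mitochondrial carboxykinase gene PCK2 was at 246 and 229 normalised reads with vehicle and 447 and 539 with the combination (1.04 ± 0.15). Both were low in vehicle and higher in each combination library. Among transporters and synthetases SLC7A11, which imports cystine, was at 1564 and 1448 normalised reads with vehicle and 2511 and 2553 with the combination (0.75 ± 0.09, adjusted p = 6.2e-05), and AARS1 rose by 0.56. Among feedback genes DDIT4, an inhibitor of the growth kinase complex mTORC1, was at 1426 and 1313 normalised reads with vehicle and 3041 and 2921 with the combination (1.12 ± 0.12, adjusted p = 2.44e-05), and SESN2, a stress sensor of the same complex, was at 186 and 159.5 normalised reads with vehicle and 266 and 347 with the combination (0.81 ± 0.19). GDF15 (1.33) and CBS (0.82), a cytokine and an enzyme gene of the list, were not called, while voom called both (adjusted p = 0.0262 and 0.0359). ASNS (adjusted p 0.121 to 0.226) lost its call without any 1 of the 4 H441 libraries. ATF3 lost its call without vehicle 1 (adjusted p = 0.0883) and SESN2 without vehicle 2 (0.143) or combination 2 (0.185). ASNS (adjusted p = 0.0509) lost its call with quantile normalisation.

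The stress response was measured in the other lines as well. The list's median was 1.24 in HCC827, 1.44 in H460 and 0.33 in H1703, where 9.92, 26.7 and 35.5% of all genes were called. In a limma test of the difference between changes, 18 of the 44 members changed less in H441 than in HCC827 and 0 more, with 2.01% of all genes called. Against the mean of the other 3 lines 21 changed less and 1, the amino acid transporter gene SLC7A5, more, with 13.2% of all genes called. DDIT3 rose by 1.97 in HCC827, 2.16 in H460 and 2.76 in H1703, and the H441 change differed from HCC827 by -0.95 ± 0.16 (adjusted p = 0.0025). PCK2 differed from HCC827 by -1.35 ± 0.22 (adjusted p = 0.00233). ASNS rose in all 4 lines (2.44, 2.21 and 2.10 in HCC827, H460 and H1703), and its difference from their mean of -0.96 ± 0.41 was not called (adjusted p = 0.145).

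**Figure D3:**
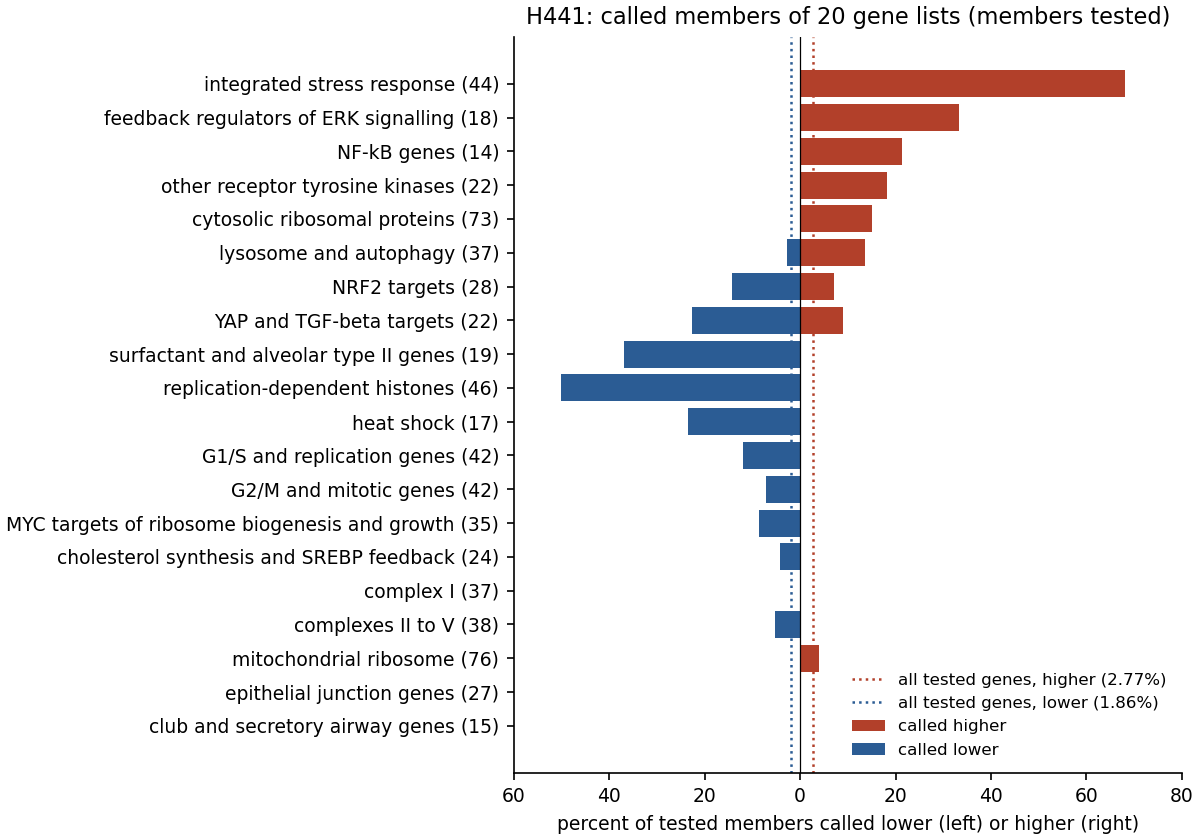
Percent of the tested members of 20 gene lists called higher (right) or lower (left) in H441, with the number tested in brackets and dotted lines at 2.77 and 1.86%, the shares of all tested genes. The integrated stress response has 30 of 44 members higher, and replication-dependent histones have 23 of 46 lower.

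Some genes that restrain ERK signalling, a kinase pathway that growth factor receptors switch on, rose as well. The list of feedback regulators used here also holds ERK-induced factor genes, named below. Of 18 tested feedback regulators 6 rose, 0 fell and 12 were not called, beside 2.77% of all genes called higher, with a median of 0.62 (0.52 with 1 member set to its bound). DUSP5 (chromosome 10, 110497838 to 110511544, plus strand), a nuclear phosphatase of ERK, was at 170.1 and 149 normalised reads with vehicle and 897 and 859 with the combination, a 5.51-fold higher level (2.44 ± 0.33, adjusted p = 0.00142). SPRY4, an inhibitor of receptor signalling to ERK, was at 144 and 142 normalised reads with vehicle and 310.3 and 375 with the combination (1.24 ± 0.14, adjusted p = 3.19e-05). Both genes were low in the vehicle libraries and high in the combination libraries, with a wide gap. DUSP4, a related phosphatase gene, rose by 1.17 ± 0.21, PHLDA1 by 1.00 ± 0.22, and the ERK-induced factor genes ETV5 and ETV4 by 0.69 ± 0.10 and 0.49. DUSP6, a feedback phosphatase gene, was not called (0.84). The number called higher was 3 to 4 when 1 H441 library was left out. The medians in HCC827, H460 and H1703 were 0.27, 0.92 and 0.81. PHLDA1 (adjusted p 0.0791 to 0.121) and ETV4 (0.103 to 0.227) lost their calls without any 1 of the 4 H441 libraries. DUSP4 lost its call without vehicle 2 (adjusted p = 0.0662). DUSP4 (adjusted p = 0.15) lost its call with voom on the recovered reads.

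Several receptors and a ligand upstream of this pathway rose, beside 2.77% of all genes called higher. AXL, a receptor tyrosine kinase, was at 395 and 399 normalised reads with vehicle and 1133 and 1247 with the combination (1.57 ± 0.35, adjusted p = 0.0195). The ephrin receptor gene EPHA2 was at 1679.7 and 1523 normalised reads with vehicle and 3249 and 3226 with the combination (1.02 ± 0.22). With MERTK, a relative of AXL (1.09 ± 0.27), and FGFR1 (0.81 ± 0.13, on 7 vehicle and 18 combination reads) they were the 4 rises, and there was no fall, among 22 receptor tyrosine kinases outside the EGFR family. Of 16 EGFR family receptors and ligands EGFR, at 3484 and 3372 normalised reads with vehicle and 4275 and 4417 with the combination (0.34 ± 0.06, adjusted p = 0.00179), and the ligand gene HBEGF (0.93 ± 0.21) rose. Downstream, FOSL1, which encodes an AP-1 subunit, was at 3029 and 2687 normalised reads with vehicle and 6369 and 6596 with the combination (1.18 ± 0.12, adjusted p = 1.03e-05). It was 1 of 3 rises among 24 immediate early and AP-1 genes, beside ATF3 and PHLDA1. The antiproliferative gene BTG2 had 4 vehicle and 0 combination reads and fell at least 1.53-fold with the combination level set to 3 reads over the group. The AP-1 element TGANTCA was in 6.25% of the list's 16 promoter windows and in 7.76% of all windows, and TGACGTCA, the CREB element, in 12.5% and 1.98%. Of 20 mesenchymal genes the fibronectin receptor subunit ITGA5, at 55.2 and 31.5 normalised reads with vehicle and 142 and 102 with the combination (1.47 ± 0.19), and fibronectin itself, FN1 (0.43 ± 0.11), rose, at a list median of 0. The list's summed level went the other way, from 13392 and 14509.6 normalised reads with vehicle to 8701 and 9450.4 with the combination, most of it in the matrix protein gene TGFBI, at 11921 and 13034 normalised reads with vehicle and 6784 and 7523 with the combination (-0.80 ± 0.37, adjusted p = 0.316), which voom called lower (adjusted p = 0.00111). Voom called 1 higher and 2 lower of the list. AXL (adjusted p 0.0667 to 0.106), EPHA2 (0.0882 to 0.139), MERTK (0.0669 to 0.179) and FN1 (0.109 to 0.138) lost their calls without any 1 of the 4 H441 libraries. HBEGF lost its call without vehicle 1 (adjusted p = 0.0844) or vehicle 2 (0.0766) or combination 2 (0.117) and BTG2 without vehicle 2 (0.0736). FGFR1 (adjusted p = 0.417), BTG2 (0.21) and FN1 (0.204) lost their calls with voom on the recovered reads. FN1 (adjusted p = 0.0744) lost its call with quantile normalisation.

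Targets of TGF-beta, BMP and YAP signalling were split, with 2 of 22 higher and 5 lower (0 and 2 to 4 when 1 H441 library was left out) and a median of 0.15. ID3, a BMP-induced inhibitor of differentiation factors, was at 30.9 and 23.9 normalised reads with vehicle and 9.07 and 13.6 with the combination (-1.12 ± 0.20). The ligand gene TGFB2 was at 171 and 152 normalised reads with vehicle and 81.6 and 84.4 with the combination (-0.94 ± 0.20). ID1 (-0.92), ID2 (-1.54) and the inhibitory SMAD6 (-0.88) also fell, while AXL and the receptor gene TGFBR1 (0.44) rose. Among all tested genes 2.77% were called higher and 1.86% lower. SMAD6 (adjusted p 0.106 to 0.145) and TGFBR1 (0.0782 to 0.264) lost their calls without any 1 of the 4 H441 libraries. ID3 lost its call without combination 1 (adjusted p = 0.0502), TGFB2 without vehicle 1 (0.102) or combination 1 (0.0746) or combination 2 (0.0609) and ID2 without vehicle 1 (0.0626) or combination 2 (0.111). ID3 (adjusted p = 0.176), TGFB2 (0.0712), ID2 (0.596), SMAD6 (0.509) and TGFBR1 (0.0515) lost their calls with voom on the recovered reads. SMAD6 (adjusted p = 0.0623) and TGFBR1 (0.0557) lost their calls with quantile normalisation. TGFBR1 (adjusted p = 0.0536) lost its call with centring each library on its median.

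A few genes of NF-kB and inflammatory signalling rose. Of 14 NF-kB genes 3 rose and 0 fell, beside 2.77% of all genes called higher, with a median of 0.36. TNFAIP3, a brake on NF-kB, was at 208 and 238 normalised reads with vehicle and 606 and 584 with the combination (1.41 ± 0.16, adjusted p = 3.53e-05). TRAF1, an adaptor of TNF receptors, was at 30.9 and 42.3 normalised reads with vehicle and 104 and 113 with the combination (1.51 ± 0.28), and the subunit gene NFKB2 rose by 0.56 ± 0.09. Of 23 chemokines and cytokines 3 rose and 0 fell, beside the same 2.77%. IL23A, a subunit gene of interleukin 23, was at 107 and 86.8 normalised reads with vehicle and 430.2 and 388 with the combination (2.05 ± 0.37, adjusted p = 0.00235), and the chemokine gene CXCL16 (0.94 ± 0.19) and the macrophage growth factor gene CSF1 (1.32 ± 0.32, on 7 vehicle and 23 combination reads) were the others. TNFAIP3 changed more than in HCC827 (difference 1.18 ± 0.23, adjusted p = 0.00765), and IL23A rose in HCC827 too (2.04). TRAF1 lost its call without vehicle 1 (adjusted p = 0.0602), CXCL16 without vehicle 1 (0.109) or combination 2 (0.0786) and CSF1 without vehicle 1 (0.297) or combination 1 (0.131) or combination 2 (0.0713). CSF1 (adjusted p = 0.196) lost its call with voom on the recovered reads.

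Immune surface genes changed in part, beside 2.77 and 1.86% of all genes called higher and lower. CD274, which encodes the checkpoint ligand PD-L1, was at 625 and 634 normalised reads with vehicle and 1416 and 1445 with the combination (1.18 ± 0.25, adjusted p = 0.00997), and the TIGIT ligand gene PVR rose by 0.44 ± 0.10, the 2 called of 11 checkpoint ligands. Interferon-stimulated genes were split, with IFI44L (1.48 ± 0.23) and GBP1 (1.24 ± 0.29) higher and PARP9 (-0.62 ± 0.10) lower of 30. The surface proteases ADAM8 (1.63 ± 0.35) and ADAM17 (0.45 ± 0.08), the latter a sheddase of EGFR ligands, were the called members of 15 metalloproteinases and TIMPs. CD274 (adjusted p 0.0539 to 0.0662) lost its call without any 1 of the 4 H441 libraries. PVR lost its call without vehicle 2 (adjusted p = 0.167) or combination 1 (0.0726) or combination 2 (0.115), GBP1 without vehicle 1 (0.0947) or vehicle 2 (0.099) or combination 2 (0.192) and ADAM8 without vehicle 2 (0.0826) or combination 1 (0.0974). ADAM17 lost its call without combination 2 (adjusted p = 0.0794). CD274 (adjusted p = 0.06) lost its call with voom on the recovered reads.

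Of the 4 genes whose proteins TMP195 binds, 2 rose, beside 2.77% of all genes called higher. HDAC9 (chromosome 7, 18086949 to 19002416, plus strand), itself a MEF2 target, was at 51.9 and 46.7 normalised reads with vehicle and 170.2 and 213 with the combination (1.90 ± 0.26, adjusted p = 0.000243). HDAC5 was at 209 and 207 normalised reads with vehicle and 325 and 382 with the combination (0.75 ± 0.12, adjusted p = 0.000591). HDAC4 (-0.10 ± 0.12, adjusted p = 0.776) and HDAC7 (0.24 ± 0.13, adjusted p = 0.337) were not called. HDAC9 thus showed the wider gap between groups. Of 14 MEF2 and NR4A genes, HDAC9 among them, MEF2C rose as well, at 177 and 191 normalised reads with vehicle and 279 and 368 with the combination (0.79 ± 0.13), as did ITGA5 (1.47), and the orphan receptor gene NR4A3 fell on 10 vehicle and 2 combination reads (5.73-fold, 95% counting interval 1.22 to 53.8; change -1.64). Among 16 other deacetylases, sirtuins and partners the corepressor gene NCOR1 was the 1 called (0.23 ± 0.06, adjusted p = 0.0435), beside 4.63% of all genes. NCOR1 (adjusted p 0.103 to 0.259) lost its call without any 1 of the 4 H441 libraries. NR4A3 lost its call without vehicle 1 (adjusted p = 0.258) or combination 2 (0.332). NR4A3 (adjusted p = 0.158) lost its call with voom on the recovered reads. NCOR1 (adjusted p = 0.0642) lost its call with centring each library on its median. NCOR1 (adjusted p = 0.0714) lost its call with quantile normalisation.

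MYC mRNA was at 953 and 994 normalised reads with vehicle and 1022 and 1336 with the combination (0.26 ± 0.11, adjusted p = 0.222). In its network of 12 genes MYCL, a MYC paralog, was at 14.4 and 15.2 normalised reads with vehicle and 46.3 and 50.8 with the combination (1.56 ± 0.37), and MXD4, a MAX partner that opposes MYC, was at 226 and 210.5 normalised reads with vehicle and 129.9 and 104 with the combination (-0.89 ± 0.25). Of 35 MYC targets of ribosome biogenesis and growth 3 fell and 0 rose, beside 1.86% of all genes called lower, and the median change was 0.01. LDHA, which makes lactate, was at 12076 and 11193 normalised reads with vehicle and 9236 and 9108 with the combination (-0.34 ± 0.08). The nucleolar protein gene NCL (-0.34 ± 0.08) and the mitochondrial chaperonin gene HSPD1 (-0.34 ± 0.07) fell by like amounts. The list's median was 0.11 in HCC827, -0.39 in H460 and -0.39 in H1703. For 11 members the H441 change was higher than the mean of the other 3 lines, with 13.2% of all genes called. MYCL (adjusted p 0.0798 to 0.118), MXD4 (0.0835 to 0.262), LDHA (0.0537 to 0.188) and HSPD1 (0.0591 to 0.112) lost their calls without any 1 of the 4 H441 libraries. NCL lost its call without vehicle 1 (adjusted p = 0.0805) or vehicle 2 (0.146) or combination 1 (0.233). MXD4 (adjusted p = 0.0592) lost its call with quantile normalisation. LDHA (adjusted p = 0.0697) and HSPD1 (0.0532) lost their calls with centring each library on its median. NCL (adjusted p = 0.0978) lost its call with voom on the recovered reads.

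The E-box CACGTG, the element bound by MYC and MAX, was in 13 of 30 promoter windows of the MYC target list, or 43.3%, and in 7.43% of all windows. It is shown in capitals for the called members that hold it before the start site, in the same layout as the ATF4 element.
LDHA, chr11:18394338-18394427, plus strand: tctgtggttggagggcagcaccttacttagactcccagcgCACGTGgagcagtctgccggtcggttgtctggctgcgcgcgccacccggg
HSPD1, chr2:197500313-197500402, minus strand: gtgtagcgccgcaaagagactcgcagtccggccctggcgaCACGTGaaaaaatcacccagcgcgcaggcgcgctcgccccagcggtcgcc
The match shown begins 185 bases before the start site in LDHA and 88 bases before it in HSPD1. Members were listed as MYC targets, so the share may reflect that choice, and the element's part in any change was not tested.

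Cell cycle genes fell in small numbers. Limma called 5 of 42 G1/S and replication genes lower and 0 higher, beside 1.86% of all genes called lower, at a median of -0.15, and voom called 12 lower. CLSPN, a replication checkpoint gene, was at 2981 and 2684 normalised reads with vehicle and 1992 and 2039 with the combination (-0.49 ± 0.07, adjusted p = 0.000571), and the phosphatase gene CDC25A (-0.55 ± 0.15), the cyclin gene CCNE2 (-0.50 ± 0.13), the helicase gene MCM4 (-0.38 ± 0.09) and UHRF1 (-0.34) followed. Of 42 G2/M and mitotic genes the phosphatase gene CDC25B (-0.42 ± 0.10) and the mitotic motor genes KIF11 (-0.40 ± 0.09) and KIF4A (-0.37 ± 0.10) fell, with a median of -0.15. Limma called none of 6 CDK inhibitors (0 higher and 1 lower at an unadjusted p below 0.05; voom called 0), CDKN1A being at 218 and 199.7 normalised reads with vehicle and 287 and 261 with the combination (0.39 ± 0.20, adjusted p = 0.337). CCNE2 (adjusted p 0.105 to 0.195), UHRF1 (0.13 to 0.233), KIF11 (0.0506 to 0.0935) and KIF4A (0.158 to 0.193) lost their calls without any 1 of the 4 H441 libraries. CDC25A lost its call without vehicle 1 (adjusted p = 0.395) or combination 1 (0.0839) or combination 2 (0.248), MCM4 without vehicle 1 (0.181) or combination 2 (0.138) and CDC25B without vehicle 1 (0.218) or combination 1 (0.237). CDC25A (adjusted p = 0.0637), UHRF1 (0.106) and KIF4A (0.091) lost their calls with centring each library on its median. CDC25A (adjusted p = 0.0537) lost its call with quantile normalisation. CDC25A (adjusted p = 0.0518) and CDC25B (0.0615) lost their calls with voom on the recovered reads.

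Cell cycle changes were larger in the other lines. The medians of the G1/S and G2/M lists were -0.58 and -0.80 in HCC827, -1.97 and -1.71 in H460 and -1.75 and -1.80 in H1703. In the test of the difference from the mean of the other 3 lines, 41 of 42 G1/S genes and 40 of 42 G2/M genes had a higher change in H441, with 13.2% of all genes called, and against HCC827 alone 8 and 18 did, with 2.01% called. The E2F element TTTNGCGC was in 15 of 35 promoter windows of the G1/S list, or 42.9%, and in 1.83% of all windows. It is shown in capitals for CDC25A, the called member that holds it.
CDC25A, chr3:48188418-48188507, minus strand: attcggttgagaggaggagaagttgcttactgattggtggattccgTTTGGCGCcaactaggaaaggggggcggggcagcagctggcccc
The match begins 44 bases before the start site, and the part of the element in any change was not tested.

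Replication-dependent histone genes, which are expressed in S phase and whose mRNAs lack a poly(A) tail, fell in larger numbers. Of 46 tested 23 fell and 0 rose, beside 1.86% of all genes called lower, with a median of -0.56. Their summed level was 17580.4 and 16493 normalised reads with vehicle and 10874 and 11712 with the combination. H4C8 was at 123 and 117 normalised reads with vehicle and 39.3 and 57.2 with the combination (-1.29 ± 0.19, adjusted p = 0.000394), H3C1 at 82.8 and 82.5 normalised reads with vehicle and 33.2 and 28.1 with the combination (-1.36 ± 0.30) and H3C12 at 79.5 and 65.1 normalised reads with vehicle and 15.1 and 21.8 with the combination (-1.84 ± 0.39). In these 3 genes the groups were apart in every library, as in every called gene. H2BC14 had 15 vehicle and 1 combination reads (17.2-fold, 95% counting interval 2.65 to 724; change -2.39). Near-identical histone copies can share reads, so the number of changed members is uncertain. The number called lower was 7 to 15 when 1 H441 library was left out. The medians in HCC827, H460 and H1703 were -0.62, -1.63 and -1.90, and 23 members had a higher change in H441 than in the mean of those lines, with 13.2% of all genes called. H2BC14 (adjusted p 0.0547 to 0.265) lost its call without any 1 of the 4 H441 libraries. H3C1 lost its call without vehicle 1 (adjusted p = 0.0778) or vehicle 2 (0.0751) or combination 2 (0.0965) and H3C12 without vehicle 1 (0.098) or combination 1 (0.093).

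Cholesterol genes were mostly not called in H441. Of 24 genes of cholesterol synthesis and SREBP feedback 1 fell and none rose, and the median was -0.04. HMGCS1, which makes HMG-CoA early in the pathway, was at 1122 and 1182 normalised reads with vehicle and 1245 and 1100.3 with the combination (0.02 ± 0.09). Its level overlapped between groups in H441, whereas its change was -1.90 in HCC827, -1.85 in H460 and -0.10 in H1703, where it was not called, a difference of 1.31 ± 0.10 from their mean (adjusted p = 6.61e-08). In HCC827, H460 and H1703, where 9.92, 26.7 and 35.5% of all genes were called, 20, 20 and 16 members were lower, with medians of -0.82, -1.17 and -0.83. Against HCC827 11 members had a higher change in H441, with 2.01% of all genes called, and against the mean of the other lines 18 did, with 13.2% called. The sterol element TCACNCCAC was in 1 of 18 promoter windows of the list, or 5.56%, and in 1.15% of all windows.

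Fatty acid genes moved in both directions. SREBF1, which encodes the lipogenic transcription factor, was at 2331 and 2709 normalised reads with vehicle and 1464 and 1469.8 with the combination (-0.78 ± 0.10, adjusted p = 0.000132). FASN, the fatty acid synthase gene, was at 4477 and 4619 normalised reads with vehicle and 2843 and 3031 with the combination (-0.63 ± 0.09, adjusted p = 0.000326). The elongase gene ELOVL6 was at 271 and 233 normalised reads with vehicle and 508 and 487 with the combination (0.98 ± 0.12, adjusted p = 5.89e-05). These were the 3 called of 16 genes of fatty acid synthesis and desaturation, and their groups did not overlap, as in every called gene. Of 16 genes of lipolysis and lipid droplets the monoglyceride lipase gene MGLL (0.66 ± 0.15) and the phosphatidate phosphatase gene LPIN2 (0.52 ± 0.13) rose. MGLL (adjusted p 0.0576 to 0.122) and LPIN2 (0.0535 to 0.185) lost their calls without any 1 of the 4 H441 libraries.

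**Figure D4:**
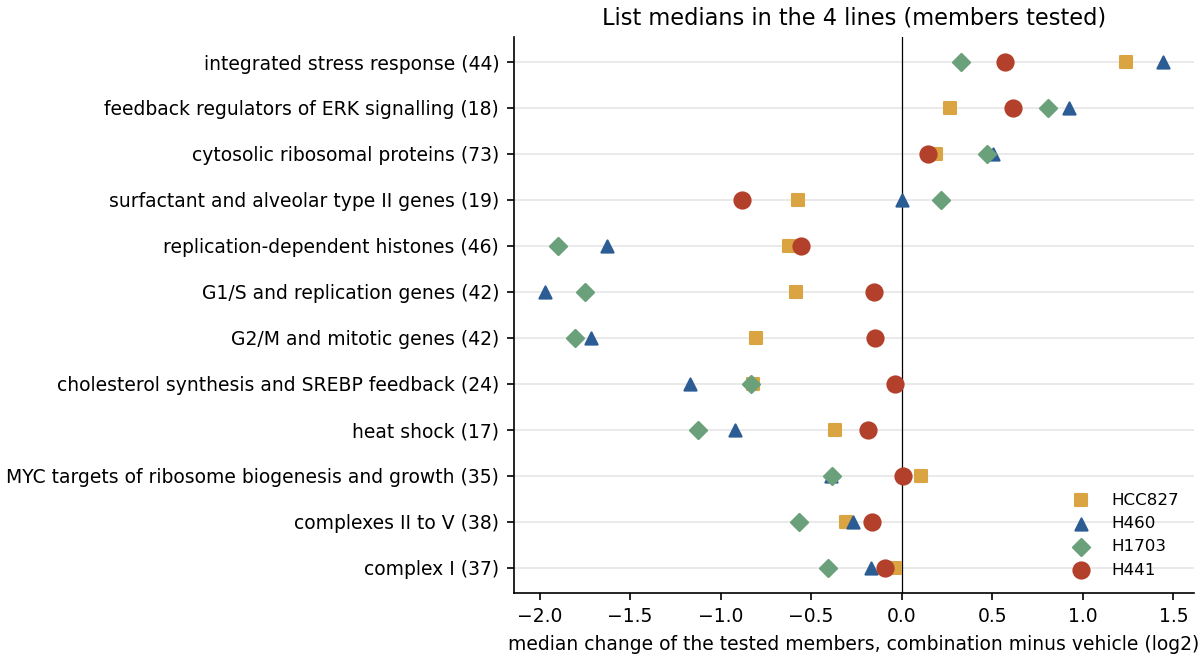
Median change (log2, combination minus vehicle) of the tested members of 12 gene lists in H441 and the 3 other lines, with the number of members in brackets. In H441 the G1/S, G2/M and cholesterol medians are -0.15, -0.15 and -0.04, whereas in the other lines they lie at -0.58 or lower.

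Mitochondrial genes were mostly not called in H441. Limma called none of 37 complex I genes (1 higher and 5 lower at an unadjusted p below 0.05; voom called 1 lower), with a median of -0.09; the core subunit gene NDUFS1 was at 1244 and 1262 normalised reads with vehicle and 1156 and 1242 with the combination. In complexes II to V SDHD (-0.48 ± 0.13) and the ATP synthase gene ATP5F1C (-0.32 ± 0.08) fell of 38. Of 13 mitochondrially encoded mRNAs MT-CO3 was at 6652 and 6646 normalised reads with vehicle and 4102 and 4421 with the combination (-0.64 ± 0.15), and the list's median was -0.35. MT-CO1, another oxidase subunit gene, was at 59897 and 59652 normalised reads with vehicle and 62431 and 64580 with the combination (0.09 ± 0.05). It was the 1 member of the 13 with a positive change, and the other 12 changes were negative. In limma 0 of the 13 were higher and 7 lower at an unadjusted p below 0.05, and voom called 0. Of 76 mitochondrial ribosome genes MRPL24 (0.43 ± 0.09), MRPL42 (0.36 ± 0.08) and MRPS5 (0.31 ± 0.07) rose, beside 2.77% of all genes called higher. The median of those 76 was -0.06. In the TCA cycle the isocitrate dehydrogenase subunit genes IDH3A (-0.51 ± 0.10) and IDH3B (0.55 ± 0.14) moved in opposite directions. In fatty acid oxidation ACADVL (0.59 ± 0.08) and ECI2 (0.47 ± 0.13) rose and CPT2 (-0.56 ± 0.14) fell of 22. SDHD (adjusted p 0.0867 to 0.239), ATP5F1C (0.0652 to 0.249), MT-CO3 (0.0876 to 0.147), MRPL42 (0.074 to 0.0883) and MRPS5 (0.088 to 0.122) lost their calls without any 1 of the 4 H441 libraries. MRPL24 lost its call without vehicle 2 (adjusted p = 0.11) or combination 1 (0.0973), IDH3A without vehicle 1 (0.0624) and IDH3B without vehicle 2 (0.253) or combination 1 (0.0579) or combination 2 (0.186). ECI2 lost its call without vehicle 1 (adjusted p = 0.357) or combination 1 (0.117) or combination 2 (0.19) and CPT2 without vehicle 1 (0.0701) or vehicle 2 (0.184) or combination 1 (0.24). SDHD (adjusted p = 0.072), ATP5F1C (0.0684) and ECI2 (0.0549) lost their calls with centring each library on its median. SDHD (adjusted p = 0.0564), MT-CO3 (0.11), IDH3B (0.11) and ECI2 (0.0855) lost their calls with voom on the recovered reads.

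A few chaperone genes fell and some ribosomal protein genes rose, all by small amounts. Limma called 4 of 17 heat shock genes lower and 0 higher, beside 1.86% of all genes called lower, and the median was -0.19. HSPA8, the constitutive HSP70 gene, was at 14145 and 13015 normalised reads with vehicle and 9907 and 9785 with the combination (-0.46 ± 0.06, adjusted p = 0.000159), HSP90AA1 at 16140 and 15063 normalised reads with vehicle and 13230 and 12363 with the combination (-0.29 ± 0.06), and DNAJA1, a cochaperone gene, fell by 0.52 ± 0.10 beside HSPD1. The list's medians in HCC827, H460 and H1703 were -0.37, -0.92 and -1.12, and 13 members had a higher change in H441 than in the mean of those lines, with 13.2% of all genes called. Limma called 11 of 73 cytosolic ribosomal protein genes higher and 0 lower, beside 2.77% of all genes called higher, at a median of 0.15, and 6 were called with quantile normalisation and 4 to 6 when 1 H441 library was left out. Of the heat shock genes 1 to 3 were then called lower. RPL4 was at 19100 and 17226 normalised reads with vehicle and 25962 and 27486 with the combination (0.56 ± 0.08), and RPL5 (0.47 ± 0.09), RPS6 (0.44 ± 0.11) and RPL13 (0.42 ± 0.07) followed. The protein disulfide isomerase genes PDIA4 (0.29 ± 0.07) and PDIA6 (0.29 ± 0.08) were the called members of 20 unfolded protein response genes, where voom called 8 higher and 1 lower. PSMA7 (-0.40 ± 0.09) was the 1 called of 31 proteasome genes, beside 1.86% of all genes called lower. RPS6 (adjusted p 0.101 to 0.185), PDIA4 (0.0615 to 0.171) and PDIA6 (0.122 to 0.218) lost their calls without any 1 of the 4 H441 libraries. HSP90AA1 lost its call without vehicle 1 (adjusted p = 0.145) or combination 2 (0.136), DNAJA1 without combination 2 (0.0622) and PSMA7 without vehicle 2 (0.159) or combination 1 (0.0669) or combination 2 (0.0925). HSP90AA1 (adjusted p = 0.0614) and PDIA6 (0.0751) lost their calls with centring each library on its median. HSP90AA1 (adjusted p = 0.361), RPL5 (0.0929), RPS6 (0.0805), PDIA4 (0.107) and PDIA6 (0.0792) lost their calls with quantile normalisation. RPL4 (adjusted p = 0.0555), RPL5 (0.0749) and RPS6 (0.213) lost their calls with voom on the recovered reads.

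Redox and sugar metabolism held scattered changes, beside 2.77 and 1.86% of all genes called higher and lower. Of 28 NRF2 targets the thioredoxin reductase gene TXNRD1, at 12498 and 12760 normalised reads with vehicle and 9808 and 9333 with the combination (-0.40 ± 0.07), the quinone reductase gene NQO1 (-0.32 ± 0.09), PGD (-0.29) and GPX2 (-1.94 ± 0.51, on 40 vehicle and 12 combination reads) fell, while SLC7A11 and the ferritin gene FTL (0.28) rose. Of 24 glycolysis genes the lactate transporter gene SLC16A1 rose (0.70 ± 0.10, adjusted p = 0.000326) and LDHA and the regulator gene PFKFB3 (-0.53 ± 0.13) fell. Of 18 hypoxia response genes ANGPTL4 rose (1.08 ± 0.25) and EGLN3 fell (-0.76 ± 0.20), where voom called 5 higher and 2 lower and limma called 0 when any 1 H441 library was left out. NQO1 (adjusted p 0.149 to 0.235), PGD (0.0579 to 0.239), ANGPTL4 (0.0565 to 0.138) and EGLN3 (0.113 to 0.208) lost their calls without any 1 of the 4 H441 libraries. GPX2 lost its call without vehicle 1 (adjusted p = 0.106) or vehicle 2 (0.191) or combination 1 (0.367), FTL without vehicle 2 (0.306) or combination 1 (0.0903) or combination 2 (0.166) and PFKFB3 without vehicle 1 (0.231) or combination 1 (0.0585) or combination 2 (0.162). NQO1 (adjusted p = 0.0664), PGD (0.0798) and EGLN3 (0.0506) lost their calls with centring each library on its median.

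Among lysosome, survival and transport genes SQSTM1, an autophagy receptor gene, was at 2872 and 3023 normalised reads with vehicle and 4547 and 5163 with the combination (0.72 ± 0.08, adjusted p = 2.35e-05). It was 1 of 5 rises among 37 lysosome and autophagy genes, beside 2.77% of all genes called higher. The others were FLCN (0.62 ± 0.17), CTSL (0.59 ± 0.14), FNIP1 (0.39) and CTSB (0.28), and FNIP2 fell (-0.76 ± 0.12). The number called higher was 1 to 2 when 1 H441 library was left out. Of 25 p53 targets 2 rose and 2 fell, beside 2.77 and 1.86% of all genes. The death receptor gene TNFRSF10B (0.73 ± 0.12) and SESN2 rose. BTG2 (on 4 vehicle and 0 combination reads) and SPATA18 fell. SPATA18 had 17 vehicle and 1 combination reads (19.5-fold, 95% counting interval 3.05 to 814, change -2.49). BCL2L1, which protects from apoptosis, was at 1255 and 1327 normalised reads with vehicle and 1910 and 2052 with the combination (0.62 ± 0.12). It was the 1 called of 18 BCL2 family genes, beside 4.63% of all genes called. KCNN4, a calcium-activated potassium channel gene, was at 130.3 and 143 normalised reads with vehicle and 300.2 and 342 with the combination (1.21 ± 0.18) and was with AQP4 the called pair among 17 ion and water transport genes. Of 17 FOXO and arrestin-domain genes the insulin receptor substrate gene IRS2 rose (0.88 ± 0.13) and ARRDC4 (-1.22 ± 0.29) and SESN3 (-0.67 ± 0.14) fell. FLCN (adjusted p 0.0748 to 0.306), FNIP1 (0.0514 to 0.179), CTSB (0.0642 to 0.191) and ARRDC4 (0.0615 to 0.146) lost their calls without any 1 of the 4 H441 libraries. CTSL lost its call without vehicle 1 (adjusted p = 0.161) or vehicle 2 (0.074) or combination 1 (0.33), BTG2 without vehicle 2 (0.0736) and SPATA18 without vehicle 1 (0.0878) or vehicle 2 (0.153) or combination 2 (0.204). BCL2L1 lost its call without vehicle 1 (adjusted p = 0.0538) or combination 2 (0.0575) and SESN3 without vehicle 2 (0.0989) or combination 2 (0.0871). FLCN (adjusted p = 0.0536) lost its call with centring each library on its median. FLCN (adjusted p = 0.0605) and CTSB (0.0576) lost their calls with quantile normalisation. CTSL (adjusted p = 0.287), FNIP1 (0.123) and BTG2 (0.21) lost their calls with voom on the recovered reads.

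By the number of normalised reads gained or lost, other called genes led. The largest gain of a called gene was in ASPH, an aspartyl hydroxylase gene, at 19823 and 18442 normalised reads with vehicle and 33531 and 34017 with the combination (0.82 ± 0.07, adjusted p = 1.52e-06). The actin gene ACTB (0.46 ± 0.08) came next. HMGA1, which encodes a chromatin architecture protein, was at 10483 and 8818 normalised reads with vehicle and 18609 and 19857 with the combination (1.00 ± 0.09, adjusted p = 1.49e-06). The combination libraries of ASPH and HMGA1 stood clear of their vehicle libraries. The cytoskeleton genes FLNA (0.53 ± 0.08) and PLEC (0.47 ± 0.07) followed. The largest losses of called genes were in HSPA8, TXNRD1, HSP90AA1, SFPQ and LPCAT1. The splicing factor gene SFPQ was at 7017 and 6589 normalised reads with vehicle and 4283 and 4224 with the combination (-0.68 ± 0.06, adjusted p = 2.67e-06). ACTB (adjusted p = 0.497) lost its call with quantile normalisation. ACTB (adjusted p = 0.0583) lost its call with voom on the recovered reads.

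H441 had the fewest called genes of the 4 lines. The lines' comparisons each use their own vehicle libraries. Of the 1110 H441 calls 387 were also called in HCC827 in the same direction (34.9% of the H441 and 16.3% of the HCC827 calls) and 32 in the opposite one. With H460 543 were shared in direction (48.9 and 8.49%) and 109 were opposite, and with H1703 549 were shared (49.5 and 6.46%) and 173 were opposite. The shares of all tested genes called in HCC827, H460 and H1703 were 9.92, 26.7 and 35.5%. The overlaps therefore do not rank how alike the lines are. In all 4 lines 121 genes were called higher and 92 lower. A further 201 genes were called in H441 and in none of the other lines, and 133 of these also differed from the mean change of the other 3 in the test of that difference.

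In the test of the difference itself 314 genes were higher and 167 lower in H441 than in HCC827 (65.3% higher), and 177 of them were called in H441. With quantile normalisation it was 260 and 245 (51.5% higher), so the split depends on the scaling. Against the mean of the other 3 lines 1856 were higher and 1315 lower (58.5% higher), and 502 of them were called in H441. Centring each library on its median made that 3012 and 748 (80.1% higher) and moved the median difference of all genes from -0.047 to 0.119. AQP4, SFTPA1, SFTPA2, LRP2 and HSD11B1 reached at most 5.06 normalised reads in any library of the other lines, so their difference sets a change in H441 beside a gene near 0 elsewhere.

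Some genes that the other lines also expressed moved in H441 against some or all of those lines. ELOVL6 rose in H441 (0.98) and fell in HCC827 (-0.60), H460 (-1.49) and H1703 (-0.66), a difference of 1.89 ± 0.14 from their mean (adjusted p = 2.98e-08). PMP22, a membrane protein gene, was at 15.5 and 11.9 normalised reads with vehicle and 31.2 and 41.8 with the combination (1.26 ± 0.19) and fell in HCC827 (-0.89) and H460 (-1.03). The cytidine deaminase gene APOBEC3B was at 53.01 and 55.3 normalised reads with vehicle and 137 and 158 with the combination (1.40 ± 0.22) and fell in H460 (-2.03) and H1703 (-1.07). In HCC827 APOBEC3B went up as in H441, from 44.84 and 51.65 normalised reads with vehicle to 87.05 and 88.53 with the combination. TMOD2, which caps actin filaments, was at 68.5 and 89.0 normalised reads with vehicle and 30.2 and 21.8 with the combination (-1.51 ± 0.23) and rose in HCC827 (1.14), H460 (1.27) and H1703 (1.92). The basement membrane gene NID1 rose on few reads, at 2.21 and 4.34 normalised reads with vehicle and 17.1 and 9.99 with the combination, and fell in H1703 (-1.13), where it was abundant. The Notch ligand gene JAG1 (0.71 ± 0.17) and the polarity gene PARD3B (0.81 ± 0.21) rose in H441 and fell in HCC827, and the sulfotransferase gene HS6ST1 (-0.68 ± 0.17), WWC3 (-0.41 ± 0.11) and the trafficking adaptor gene TRAK2 (-0.52 ± 0.10) fell in H441 and rose in HCC827. The other lines did not all go with HCC827. Mean normalised reads of PARD3B rose from 91.9 to 205 in H460 and from 291.5 to 391 in H1703. Those of JAG1 rose from 234 to 817 in H460 and went from 16.6 to 18.6 in H1703. Those of HS6ST1 fell from 287 to 188 in H460 and from 147 to 70.95 in H1703. Those of TRAK2 rose from 1275 to 2607 in H460 and fell from 1139 to 832 in H1703. Those of WWC3 rose in both lines. PARD3B (adjusted p 0.0651 to 0.25) and WWC3 (0.148 to 0.193) lost their calls without any 1 of the 4 H441 libraries. NID1 lost its call without vehicle 1 (adjusted p = 0.098) or combination 1 (0.0978), JAG1 without vehicle 1 (0.147) or vehicle 2 (0.0614) or combination 2 (0.182) and HS6ST1 without vehicle 1 (0.0732) or vehicle 2 (0.169) or combination 1 (0.244). TRAK2 lost its call without vehicle 2 (adjusted p = 0.0578). PMP22 (adjusted p = 0.123) and NID1 (0.141) lost their calls with voom on the recovered reads. PARD3B (adjusted p = 0.0509) and WWC3 (0.0538) lost their calls with quantile normalisation. WWC3 (adjusted p = 0.0548) lost its call with centring each library on its median.

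**Figure D5:**
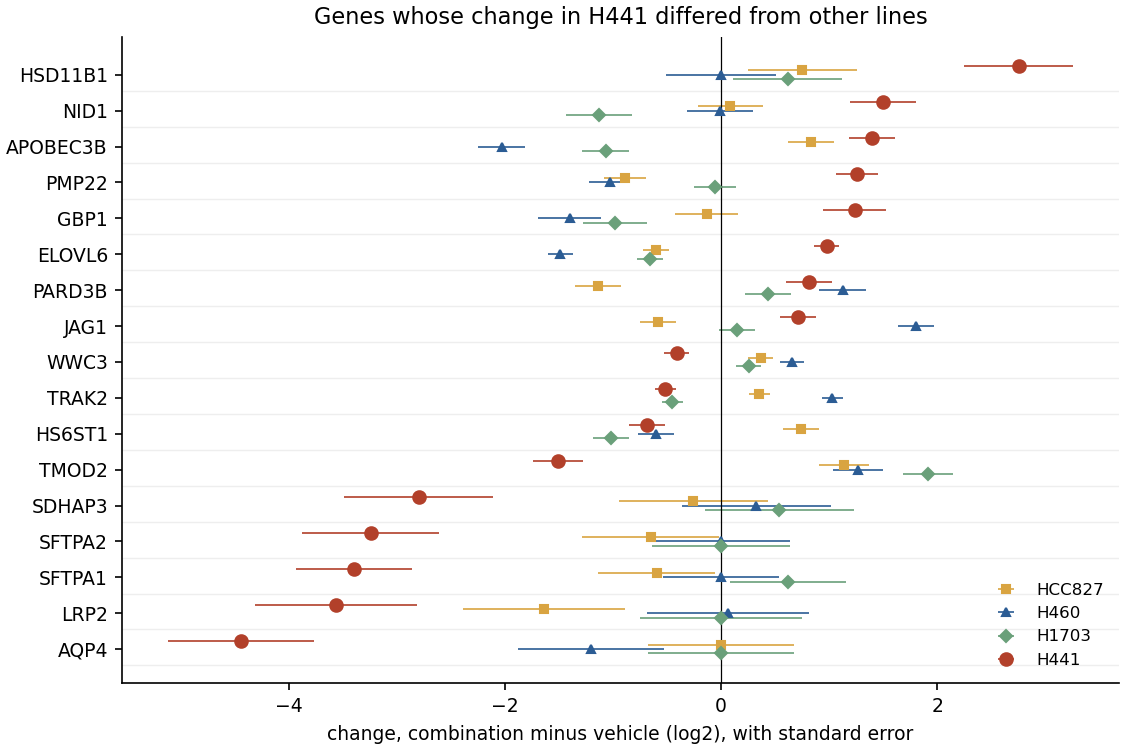
Change (log2, combination minus vehicle) with its standard error in H441 and the 3 other lines for 17 genes whose H441 change differed from the mean of the other lines, or was called in the opposite direction in HCC827. ELOVL6 lies at 0.98 in H441 and below 0 in the other 3 lines, and TMOD2 lies at -1.51 in H441 and above 0 in the others.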

How the data were processed

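The series deposited 1 table of variance-stabilised log2 values for 28951 genes in 16 libraries, in which the lowest value stands for 0 reads, per the file's values. Per the labels' protocols, stranded libraries were made from total RNA (NucleoSpin extraction), and per the submitters' processing notes Trimmomatic, STAR and featureCounts were used with hg38, also written GRCh38. Versions of these tools and the annotation release were not given in the sources used here. Inverting the transformation of the deposited log2 values gave whole reads within 0.02 for 100% of values, from which size factors, normalised reads and depths were taken. Symbols were available for 28856 identifiers, and positions come from GENCODE 29 for 28846.

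Limma 3.58.1 in R 4.3.3 was fitted to the deposited log2 values of all 16 libraries with 8 group means and the trend and robust settings, over 23968 genes whose mean was at least 1 above the lowest value, with 4983 left out. Calls are at a Benjamini-Hochberg adjusted p below 0.05 over all tested genes, and differences between lines are contrasts of the same model. On simulated data with 50 genes changed at each size, the model recovered 52% of 1.5-fold, 78% of 2-fold and 92% of 3-fold and 4-fold changes, and 16.5% of its calls were unchanged genes. That share is larger than the 0.05 set as the adjusted p threshold. The calls in the data may therefore hold more unchanged genes than the threshold implies. The changed genes were drawn from those above a minimum level in H441, so recovery of genes of few reads was not measured. No gene was changed in the other lines, unlike in the data. The remaining steps used Python 3.11.15, pandas 2.3.3, numpy 2.4.6, scipy 1.17.1 and matplotlib 3.10.9. A floor of 3 reads and exact 95% intervals of read ratios cover counting error only. Genes were named by rule: the 12 largest called rises and falls with at least 30 reads, the 5 largest gains and losses of reads, the 6 and 6 largest differences from the other lines, 4 and 4 calls opposite in HCC827, and up to 4 called members of each list. Where a sentence names another member of a list, it was chosen after its value was seen. The line and the gene lists were chosen with earlier results of these data known. Values of a few genes are not reported here.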

Additional observations from a re-analysis of the deposited data

Results flagged for a closer look

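In the limma test of the difference between changes, 12 genes named by rule changed more or less in H441 than in the mean of the other 3 lines. From the surfactant and type II cell list AQP4 (-4.04), SFTPA1 (-3.40), LRP2 (-3.04) and SFTPA2 (-3.03) were near 0 reads in the other lines. So was the steroid enzyme gene HSD11B1 (2.30). AQP4 is in the ion and water transport list as well. SDHAP3 (-3.0) fell in H441 but had 42.2 to 321 normalised reads in every library of the other lines. TMOD2 (-2.95) was lower in H441 and higher in each of the others. APOBEC3B (2.15), GBP1 (2.08), PMP22 (1.92), ELOVL6 (1.89) and NID1 (1.85) differed in the higher direction. GBP1 was at 17.7 and 17.4 normalised reads with vehicle in H441 and at 390.22 and 455.7 in HCC827, and NID1 was at 2.21 and 4.34 in H441 and at 5326 and 4721 in H1703.

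Against HCC827 alone, the other line called non-responsive, 8 genes named by rule were called in opposite directions. PMP22 (2.14), PARD3B (1.95), ELOVL6 (1.58) and JAG1 (1.29) rose in H441 and fell in HCC827. TMOD2 (-2.65), HS6ST1 (-1.43), TRAK2 (-0.87) and WWC3 (-0.78) fell in H441 and rose in HCC827. The values in brackets are differences of log2 changes, H441 minus the comparison.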

How the results depend on the processing

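Counts are given as higher and lower for H441, for H441 minus HCC827 and for H441 minus the mean of the other 3 lines, where the reported values are 665 and 445, 314 and 167, and 1856 and 1315. Without the trend and robust settings they were 216 and 148, 59 and 43, and 1137 and 835. With a change of at least 1 required they were 149 and 134, 91 and 83, and 432 and 545. With only the 4 H441 libraries limma called 0 and 0 (4622 genes at an unadjusted p below 0.05). With only the 8 libraries of HCC827 and H441 the difference between them had 482 higher, and with voom on the recovered reads 505. Centring each library on its median gave 3012 and 748 against the other lines. Leaving out each of the 16 libraries in turn gave 306 to 845 higher and 164 to 587 lower in H441, 125 to 502 and 61 to 235 against HCC827, and 1311 to 2092 and 785 to 1471 against the other lines. The other settings run (quantile normalisation, no filter or a stricter one, and pseudocounts of 1 and 5) stayed within 1.5 times. Of 156 named called genes 128 kept their call with voom, 140 with centring, 138 with quantile normalisation and 58 without the trend and robust settings, and none changed direction under any alternative. Beside the lists whose voom counts stand above, voom called higher 5 EGFR family genes (2 with limma), 5 metalloproteinase and TIMP genes (2), 6 NF-kB genes (3), 3 glycolysis genes (1), 3 ion and water transport genes (1), 3 FOXO and arrestin-domain genes (1) and 4 lipolysis genes (2). It called lower 5 G2/M genes (3), 4 mucin genes (2) and 2 YAP and TGF-beta targets (5). Across genes, the replicate differences of vehicle and combination correlated at 0.0136 to 0.0319 in the 4 lines. Counting noise in genes of few reads lowers this correlation, so it cannot decide whether the replicate numbers pair the libraries. With a replicate block of 1 term per line 780 genes were higher and 546 lower in H441, and with 1 term for all lines 688 and 462, and 155 of 156 named genes kept their call in each. The recovered depth of 9710301 to 12507833 reads limits genes of few reads, and fits that leave an H441 group with 1 library assume that it varies like the other groups.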

Other observations

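Some other gene groups held calls in H441, beside 2.77 and 1.86% of all genes called higher and lower. Of 17 circadian clock genes the repressor genes PER1 (0.58 ± 0.16) and BHLHE41 (1.38 ± 0.33) rose. Of 16 neuronal and synaptic genes SYT1 (0.76 ± 0.20) and STMN3 (0.79 ± 0.21) rose, on 56 vehicle and 112 combination reads and 346 vehicle and 698 combination reads. Of 5 metallothionein and zinc transport genes the zinc exporter gene SLC30A1 (-0.57 ± 0.16) fell and the importer gene SLC39A10 (0.58 ± 0.12) rose. PER1 (adjusted p 0.15 to 0.185), SYT1 (0.086 to 0.197) and STMN3 (0.0602 to 0.285) lost their calls without any 1 of the 4 H441 libraries. BHLHE41 lost its call without vehicle 1 (adjusted p = 0.172) or combination 1 (0.086) or combination 2 (0.0858), SLC30A1 without vehicle 1 (0.191) or vehicle 2 (0.143) or combination 2 (0.309) and SLC39A10 without vehicle 1 (0.0534) or vehicle 2 (0.0629) or combination 2 (0.0737). PER1 (adjusted p = 0.0532) and SLC30A1 (0.0633) lost their calls with centring each library on its median. PER1 (adjusted p = 0.0608) and STMN3 (0.0557) lost their calls with quantile normalisation. BHLHE41 (adjusted p = 0.146) and SYT1 (0.542) lost their calls with voom on the recovered reads.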
